A study of Homo sapiens with 6 samples.

Results

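Metallothionein and zinc transport genes were examined in AsPC-1, a human pancreatic cancer cell line in long use. They comprised 10 genes, chosen by name from the 58735 genes of the count table: the metallothioneins MT1E, MT1F, MT1G, MT1M, MT1X and MT2A, the zinc-sensing transcription factor MTF1, the zinc exporter SLC30A1 and the zinc importers SLC39A4 and SLC39A10. The control AsPC-1 cells were of genotype WT and titled NC, and are called Vector here (n = 3). RNA sequencing compared them with AsPC-1 cells labelled MMP28 overexpression (OE-MMP28, n = 3). The study describes its overexpression virus as a lentivirus with MMP28 cDNA and the matching control as an empty lentivirus. For this sequencing it names only control cells, so an empty virus in the NC cells was inferred. MMP28 encodes a secreted matrix metalloproteinase whose catalytic site holds zinc. According to the study's methods the overexpression virus also carried GFP and puromycin resistance, and infected cells were selected with puromycin. The promoter of the MMP28 cDNA was not given in the sources used here, and no clone was named. No zinc, cadmium or steroid treatment was labelled for any library.

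Metallothioneins are small cysteine-rich proteins that bind zinc, copper and cadmium. When free zinc rises, MTF1 binds metal response elements in the promoters of metallothionein genes and of SLC30A1, so that zinc is bound in the cytosol or exported at the plasma membrane. The SLC39 (ZIP) proteins move zinc into the cytosol and the SLC30 (ZnT) proteins move it out of the cytosol. Metallothionein genes also respond to glucocorticoids and to oxidative stress, and their genes lie side by side on the long arm of chromosome 16.

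Total counts ranged from 13633249 to 16691458 per library, so that a count of 0 allowed a level of up to 0.180 to 0.220 CPM (a read count divided by the library's scaled total), taken as 3 counts and covering counting error only. Values of single libraries are given throughout in the order of replicates 1, 2 and 3. MMP28 itself measured 14.8, 26.1 and 24.2 CPM in Vector, and 37.1, 40.3 and 44.0 CPM in OE-MMP28, a log2 fold change of 0.90 (edgeR, Benjamini-Hochberg adjusted p = 0.00226). The epithelial markers KRT8, KRT18, KRT19 and EPCAM were abundant, and KRT7 lay between 2.46 and 9.28 CPM. KRT19 was higher in OE-MMP28 (log2 fold change 0.71, edgeR, Benjamini-Hochberg adjusted p = 0.00175). CDH1, also epithelial, was lower without overlap, at 68.9 to 93.0 CPM against 108 to 136 CPM in Vector (log2 fold change -0.59, edgeR, Benjamini-Hochberg adjusted p = 0.0113). Of the haematopoietic markers CD3E was at 0 in all libraries. CD14 was lower in OE-MMP28 without overlap, at 1.09 to 1.38 CPM against 1.63 to 1.96 CPM in Vector. It was not called (edgeR, Benjamini-Hochberg adjusted p = 0.243). Of 3 endothelial markers PECAM1 was higher in OE-MMP28, at 0.816 to 1.82 CPM against 0 to 0.297 CPM in Vector, and the list summed to 0.458 to 1.64 CPM in Vector and 1.57 to 2.49 CPM in OE-MMP28. The haematopoietic list summed to 1.61 to 2.36 CPM and the fibroblast list to 0.654 to 1.56 CPM over the 6 libraries. Mitochondrial genes took 13.7% ± 1.62 (SD, n = 3) of the Vector counts and 10.8% ± 1.71 (SD, n = 3) of the OE-MMP28 counts. The part of KRT19, CDH1, PECAM1 and the mitochondrial share in the results below was not tested.

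The 6 metallothionein genes were close enough in sequence for the assignment of reads to be examined first. Each had a coding sequence of 186 bases spliced from 3 exons, printed here because the differences between the genes are what tells their reads apart. On GRCh38 (GENCODE release 29) the coding sequences, introns included, spanned chr16:56608656-56609354 for MT2A, chr16:56625852-56626971 for MT1E, chr16:56632732-56633842 for MT1M, chr16:56658059-56659164 for MT1F, chr16:56666879-56667993 for MT1G and chr16:56682541-56684049 for MT1X. MT1G lay on the minus strand and the others on the plus strand. Capitals mark bases that a gene shared with none of the other 5 at the aligned position.
MT2A: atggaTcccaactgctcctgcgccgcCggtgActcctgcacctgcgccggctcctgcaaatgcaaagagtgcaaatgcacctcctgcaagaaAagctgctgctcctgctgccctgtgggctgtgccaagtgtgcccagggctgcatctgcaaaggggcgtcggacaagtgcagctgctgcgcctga
MT1E: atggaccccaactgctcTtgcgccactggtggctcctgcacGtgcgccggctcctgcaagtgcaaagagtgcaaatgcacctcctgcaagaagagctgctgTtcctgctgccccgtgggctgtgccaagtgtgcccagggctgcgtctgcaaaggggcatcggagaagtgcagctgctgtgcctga
MT1M: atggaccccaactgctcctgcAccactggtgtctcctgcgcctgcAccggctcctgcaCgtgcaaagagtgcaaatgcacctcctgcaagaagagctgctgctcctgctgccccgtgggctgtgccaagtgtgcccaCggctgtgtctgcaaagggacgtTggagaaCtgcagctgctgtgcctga
MT1F: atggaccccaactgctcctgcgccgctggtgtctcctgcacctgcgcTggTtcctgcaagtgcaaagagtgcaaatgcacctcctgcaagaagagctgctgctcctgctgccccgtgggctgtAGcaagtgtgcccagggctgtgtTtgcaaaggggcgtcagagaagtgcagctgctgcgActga
MT1G: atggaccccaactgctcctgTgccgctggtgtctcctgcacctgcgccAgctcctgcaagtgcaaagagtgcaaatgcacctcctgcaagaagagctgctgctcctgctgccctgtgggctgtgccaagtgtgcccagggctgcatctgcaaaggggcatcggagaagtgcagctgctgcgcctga
MT1X: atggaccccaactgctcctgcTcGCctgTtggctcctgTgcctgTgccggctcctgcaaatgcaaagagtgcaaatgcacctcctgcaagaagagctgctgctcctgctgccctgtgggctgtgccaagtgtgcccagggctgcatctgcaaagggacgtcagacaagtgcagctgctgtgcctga
Identity between coding sequences ranged from 88.7% to 95.2% over the 15 pairs. Private bases numbered 6 in MT1M, MT1F and MT1X, 4 in MT2A, 3 in MT1E and 2 in MT1G. MT1G and MT2A were the closest pair, differing at 9 positions, and MT1F and MT1X the most distant, differing at 21 positions.

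Whether reads of this kind of gene can be placed depends on the length of the stretch that is read, and the read length was not given in the sources used here. In stretches of 50 bases, MT1E shared 5.34% of the stretches of its main transcript exactly with a transcript of another gene, MT2A 4.89%, MT1M 7.05%, MT1F 3.59%, MT1G 20.2% and MT1X 45.1%. MT1G and MT1X were thus the members with the most shared stretches, and 13.2% of the MT1G stretches were shared with MT1X. Of the MT1X stretches, 29.2% were shared with AC026461.1, a gene annotated over part of MT1X itself, and 11.7% with MT1G. In stretches of 100 bases no shared stretch was found for MT1E, MT2A, MT1M, MT1F or MT1G. MT1X still shared 19.1% at 100 bases and 5.65% at 150 bases, all of them with AC026461.1, an annotated gene on the same strand that covers 18.1% of the exonic bases of MT1X and had a count of 0 in all 6 libraries. The level of MT1G is therefore uncertain if the reads were short, and that of MT1X at each stretch length examined. For MT1E, 35 of 655 stretches of 50 bases were shared, and all 35 occurred in the pseudogene MT1JP, which had 2 counts in OE-MMP28 replicate 1 and 0 in the other libraries. The handling of reads that match several places was not given in the sources used here.

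The promoters of MT2A, MT1X and SLC30A1 were examined because MTF1 acts through a short core motif. RefSeq promoter windows (GRCh38.p14, 250 bases before to 50 after the transcript start) matched 5 of the 10 genes. No window was available for MT1E, MT1F, MT1G, MT1M or SLC39A4. The core counts below therefore say nothing about the promoters of MT1E and MT1M, the genes called below. Capitals mark the metal response element core, searched on both strands as TGCACNC or TGCGCNC, which cannot match at the same position. The windows were chr16:56608334-56608633 on the plus strand for MT2A, chr16:56682220-56682519 on the plus strand for MT1X and chr1:211579112-211579411 on the minus strand for SLC30A1.
MT2A: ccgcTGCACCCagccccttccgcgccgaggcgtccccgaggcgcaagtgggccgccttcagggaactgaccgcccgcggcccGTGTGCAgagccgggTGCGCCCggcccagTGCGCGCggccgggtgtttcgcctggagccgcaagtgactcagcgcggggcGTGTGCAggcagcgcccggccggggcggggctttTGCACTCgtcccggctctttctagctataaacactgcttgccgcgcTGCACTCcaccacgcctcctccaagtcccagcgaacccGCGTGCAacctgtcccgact
MT1X: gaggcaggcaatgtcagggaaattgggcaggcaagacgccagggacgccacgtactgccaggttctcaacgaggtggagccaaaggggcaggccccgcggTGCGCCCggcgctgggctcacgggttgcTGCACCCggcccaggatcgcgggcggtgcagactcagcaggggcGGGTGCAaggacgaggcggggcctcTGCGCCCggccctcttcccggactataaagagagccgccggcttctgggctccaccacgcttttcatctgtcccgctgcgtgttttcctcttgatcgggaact
SLC30A1: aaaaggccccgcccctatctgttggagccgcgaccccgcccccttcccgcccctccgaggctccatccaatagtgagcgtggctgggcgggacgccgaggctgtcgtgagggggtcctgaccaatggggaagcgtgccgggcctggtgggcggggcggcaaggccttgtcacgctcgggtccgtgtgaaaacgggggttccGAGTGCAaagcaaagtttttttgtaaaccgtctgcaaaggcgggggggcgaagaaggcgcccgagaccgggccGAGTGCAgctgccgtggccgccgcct
MT2A held 8 cores, MT1X held 4 and SLC30A1 held 2. MTF1 held none, and the 2 windows of SLC39A10 held 0 and 1. Of 35116 RefSeq promoter windows, 29.55% held at least 1 core, 8.6% held at least 2, 0.601% held at least 4 and 0.0199% held at least 8. A match of these letters is a description and was not tested as a binding site.

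**Figure D1:**
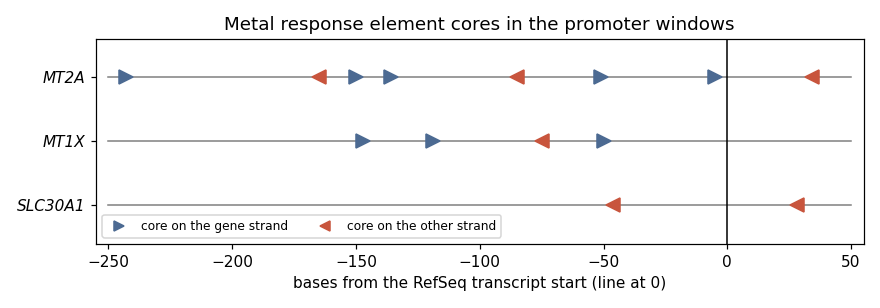
Positions of the metal response element core in the promoter windows of MT2A, MT1X and SLC30A1, in bases from the RefSeq transcript start, with arrowheads pointing along the strand of each core. MT2A holds 8 cores between -246 and 31, MT1X holds 4 between -150 and -53, and SLC30A1 holds 2 at -49 and 25.

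Between-gene levels are given as CPM per kilobase of the main transcript, because the length in the deposited table joins all annotated exons and was 1889 bases for MT1F against 690 for its main transcript. In Vector cells MT1E was the most abundant of the 10, at 64.7 ± 20.7 (SD, n = 3). SLC39A4 at 31.7 ± 6.81, SLC30A1 at 31.3 ± 1.45 and MT2A at 30.7 ± 6.26 CPM per kilobase followed and overlapped each other across libraries. SLC39A10 stood at 11.3 ± 0.602, below those and above the remaining genes in every Vector library. MT1X at 4.84 ± 2.08, MT1G at 3.89 ± 1.81, MT1F at 3.02 ± 0.395, MTF1 at 2.70 ± 0.733 and MT1M at 2.27 ± 2.14 CPM per kilobase were not separated beyond their spread. In OE-MMP28 cells MT2A led with 34.9 ± 9.23 (SD, n = 3), and SLC30A1, MT1E and SLC39A4 lay between 25.4 and 27.98 on average, so that these 4 genes overlapped. MT1E thus stood alone at the top in Vector and among 4 overlapping genes in OE-MMP28. MT1G at 6.80 ± 1.65 and MT1M at 5.86 ± 1.49 CPM per kilobase overlapped each other in OE-MMP28. MT1F at 4.16 ± 1.24, MTF1 at 2.98 ± 0.485 and MT1X at 2.22 ± 0.740 followed, each overlapping the next.

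In the comparison of OE-MMP28 with Vector, MT1E fell and MT1M rose, while the other 8 genes did not pass an adjusted p of 0.05. All 10 genes passed the filter on low counts. Across the 15319 genes tested, 11.7% were called higher and 11.6% lower, against 1 and 1 of the 10 genes here, so the number of calls was near that of the transcriptome as a whole. Their median log2 fold change was 0.16, against 0.01 over all genes tested. MT1E and MT1X, both lower in OE-MMP28, were the 2 of the 10 genes whose libraries separated by group, which happened for 38.1% of all genes tested, 18.6% lower and 19.5% higher. Changes within a gene are given below in CPM scaled by TMM.

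MT1E, one of the functional MT1 isoforms, measured 30.2, 59.2 and 47.2 CPM in Vector and 15.6, 18.1 and 23.2 CPM in OE-MMP28. Every OE-MMP28 library was below every Vector library. The mean decreased from 45.5 ± 14.5 to 19.0 ± 3.84 CPM (SD, n = 3 each), a log2 fold change of -1.26 with a standard error of 0.215 and a 95% confidence interval from -1.71 to -0.81 (edgeR, Benjamini-Hochberg adjusted p = 0.000324). These values rested on 462 to 798 counts per Vector library and 249 to 382 counts per OE-MMP28 library. The call held under all 19 alternative settings, with a log2 fold change between -1.48 and -0.92.

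MT1M, another MT1 isoform, measured 3.93, 0.964 and 0.751 CPM in Vector and 3.89, 4.43 and 6.25 CPM in OE-MMP28. Vector replicate 1 was as high as OE-MMP28 replicate 1, so the groups overlapped, whereas Vector replicates 2 and 3 were far below all OE-MMP28 libraries. The log2 fold change was 1.35 with a standard error of 0.428 (edgeR, Benjamini-Hochberg adjusted p = 0.0268). Counts were low in Vector, at 60, 13 and 11, and 62, 69 and 103 in OE-MMP28. Without Vector replicate 1 the log2 fold change was 2.50 (edgeR, Benjamini-Hochberg adjusted p = 2.48e-05). The call was lost when any one of the other 5 libraries was left out, with adjusted p from 0.0524 to 0.141, and under DESeq2, with an adjusted p of 0.184.

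MT1X and MT1G came closest to the threshold among the genes not called. MT1X measured 1.64, 3.26 and 1.64 CPM in Vector and 0.628, 1.09 and 1.27 CPM in OE-MMP28, so that all OE-MMP28 libraries lay below all Vector libraries. Its log2 fold change was -1.11 with a standard error of 0.412 (edgeR, Benjamini-Hochberg adjusted p = 0.0559), on only 10 to 44 counts per library. MT1G measured 2.29, 1.63 and 0.819 CPM in Vector and 2.51, 2.25 and 3.52 CPM in OE-MMP28. The groups overlapped through Vector replicate 1, and the log2 fold change of 0.80 had a standard error of 0.372 (edgeR, Benjamini-Hochberg adjusted p = 0.127). MT1G and MT1X are also the genes with the most shared sequence, which for MT1X was mostly shared with the overlapping AC026461.1.

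MT2A, which with MT1X is widely expressed in human tissues, measured 22.3, 29.7 and 20.4 CPM in Vector and 21.2, 25.7 and 35.4 CPM in OE-MMP28. The groups overlapped over most of their range, and the 95% confidence interval of its log2 fold change of 0.19 ran from -0.23 to 0.60 (edgeR, Benjamini-Hochberg adjusted p = 0.543). MT1F measured 1.77, 2.22 and 2.25 CPM in Vector and 1.95, 3.02 and 3.64 CPM in OE-MMP28, with a log2 fold change of 0.46 and an interval from -0.22 to 1.14 (edgeR, Benjamini-Hochberg adjusted p = 0.326). OE-MMP28 replicate 3 was the highest of its group for all 6 metallothioneins.

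**Figure D2:**
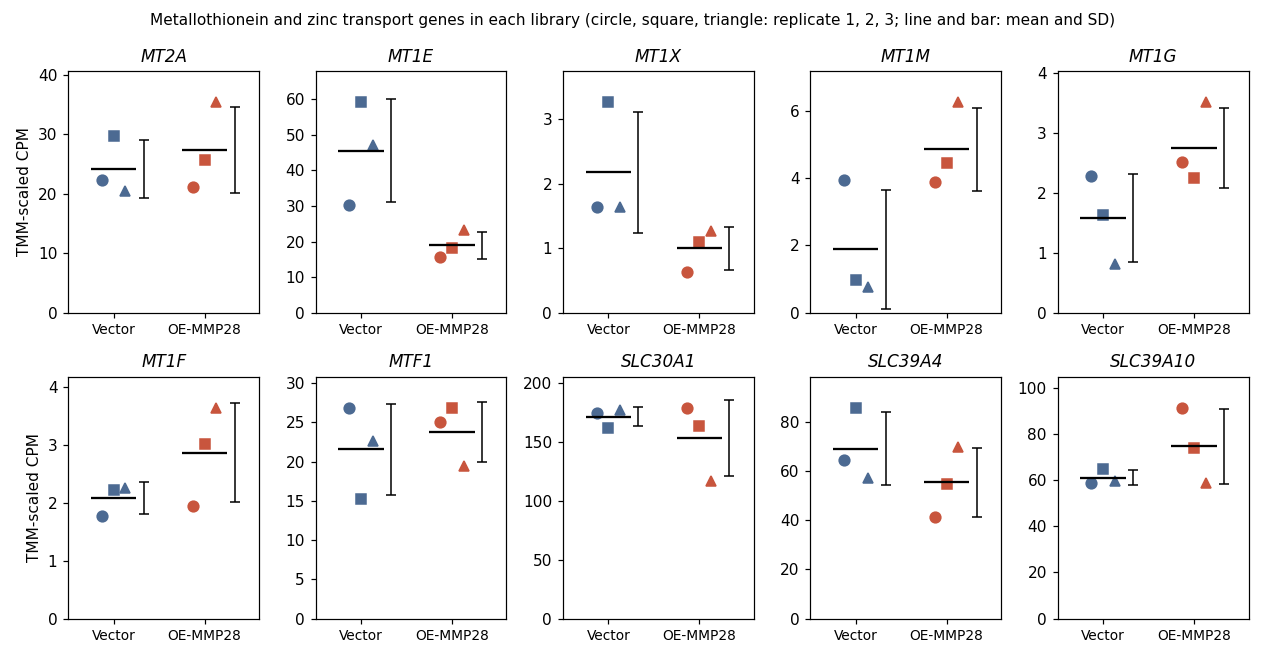
CPM, scaled by TMM, of the 10 genes in each library, with circles, squares and triangles for replicates 1, 2 and 3, a line at the group mean and a bar of 1 SD. Only MT1E and MT1X have groups that do not overlap, and the Vector circle of MT1M, at 3.93 CPM, sits among the OE-MMP28 libraries.

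The groups overlapped in the sum of the metallothionein counts and were separated in the share of MT1E. All metallothionein rows of the chromosome 16 cluster together measured 62.9, 98.2 and 74.1 CPM in Vector and 46.8, 55.2 and 75.3 CPM in OE-MMP28. OE-MMP28 replicate 3 exceeded Vector replicates 1 and 3, so the sums of the groups overlapped, and no test was made of the sum. MT1E made up 48.0%, 60.2% and 63.8% of these counts in Vector, with exact 95% binomial intervals of 44.8 to 51.2%, 57.5 to 62.9% and 60.8 to 66.6%. In OE-MMP28 it made up 33.4%, 32.8% and 30.8%, with exact 95% binomial intervals that together reached from 28.2 to 36.9%. The shares of the OE-MMP28 libraries lay close together, whereas Vector replicate 1 lay below the other Vector libraries beyond counting error.

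MT2A made up 35.4%, 30.3% and 27.6% of the metallothionein counts in Vector and 45.3%, 46.5% and 47.1% in OE-MMP28. Because shares add up to 100%, a lower share of MT1E raises the others, and the CPM of MT2A overlapped between the groups. MT1M made up 6.24%, 0.981% and 1.01% in Vector and 8.31%, 8.02% and 8.30% in OE-MMP28. The interval of Vector replicate 1 for MT1M, 4.79 to 7.96%, overlapped that of OE-MMP28 replicate 1, 6.43 to 10.5%, while its MT1E share lay between those of the other Vector libraries and OE-MMP28. MT1X made up 2.60%, 3.32% and 2.21% in Vector and 1.34%, 1.98% and 1.69% in OE-MMP28, and MT1G and MT1F had higher shares in every OE-MMP28 library than in every Vector library.

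A ratio of counts within a library does not depend on how libraries are scaled. MT1E had 1.35, 1.99 and 2.31 counts for each count of MT2A in Vector and 0.737, 0.705 and 0.654 in OE-MMP28. Per kilobase of the main transcript, too, MT1E was the more abundant of the pair in all Vector libraries and MT2A in all OE-MMP28 libraries. The mean log2 ratio differed by -1.40 between OE-MMP28 and Vector. An exact two-sided test gave p = 0.1, the smallest value it could give with these libraries, so it cannot decide. This pair was also chosen after its values were seen. MT1M had 2.40, 0.295 and 0.458 counts for each count of MT1X in Vector and 6.20, 4.06 and 4.90 in OE-MMP28.

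**Figure D3:**
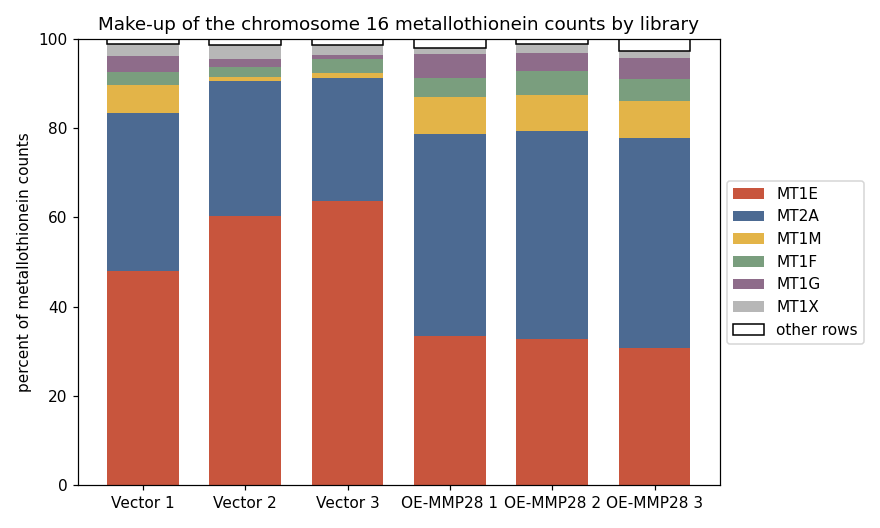
Share of each gene in the metallothionein counts of the chromosome 16 cluster, in percent, for the 6 libraries. The MT1E part is 48.0 to 63.8% in the Vector libraries and 30.8 to 33.4% in the OE-MMP28 libraries, and the MT1M part of Vector replicate 1 is 6.24%.

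The other 15 metallothionein rows held few counts and none passed the filter. Of them 7 were at 0 in all libraries, among them MT3 and MT4, the isoforms known from brain and from squamous epithelium. MT1A had 8, 8 and 12 counts in Vector and 0, 0 and 3 in OE-MMP28, so Vector libraries were higher throughout. Summed over libraries and adjusted for library size, MT1A was 10.3-fold higher in Vector, with a 95% counting interval from 3.19 to 53.0 that covers counting error only. In the fit without a filter its adjusted p was 0.00706 (edgeR, Benjamini-Hochberg). MT1L, a pseudogene, had 1, 5 and 1 counts in Vector and 8, 3 and 19 in OE-MMP28, with an adjusted p of 0.113 in the same fit (edgeR, Benjamini-Hochberg). The assignment of reads was not examined for MT1A or MT1L. In stretches of 50 bases, 16 of MT1X, 5 of MT1F, 5 of MT1M and 4 of MT1G also occurred in MT1A. MT1A and MT1L were named after their values were seen.

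MTF1, the regulator through which zinc induces metallothioneins, measured 26.8, 15.3 and 22.6 CPM in Vector and 25.1, 26.8 and 19.4 CPM in OE-MMP28. The groups overlapped, and the log2 fold change was 0.14 with an interval from -0.28 to 0.56 (edgeR, Benjamini-Hochberg adjusted p = 0.666). SLC30A1, the plasma membrane exporter ZnT1 and itself an MTF1 target, measured 175, 162 and 177 CPM in Vector and 179, 164 and 117 CPM in OE-MMP28. OE-MMP28 replicate 3 was low and the other OE-MMP28 libraries lay within or next to the Vector range. Its log2 fold change was -0.16 with an interval from -0.50 to 0.17 (edgeR, Benjamini-Hochberg adjusted p = 0.503), and was 0.0015 without OE-MMP28 replicate 3.

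SLC39A4, the importer ZIP4 of the apical membrane, whose loss causes acrodermatitis enteropathica and which is known to be raised in pancreatic cancer, measured 64.4, 85.5 and 56.9 CPM in Vector and 41.4, 54.6 and 69.8 CPM in OE-MMP28. The groups overlapped, with a log2 fold change of -0.32 and an interval from -0.72 to 0.08 (edgeR, Benjamini-Hochberg adjusted p = 0.242). SLC39A10, the plasma membrane importer ZIP10, measured 58.7, 64.9 and 59.9 CPM in Vector and 91.4, 74.1 and 59.1 CPM in OE-MMP28. OE-MMP28 replicates 1 and 2 lay above all Vector libraries and replicate 3 within them, and the log2 fold change was 0.29 with an interval from -0.06 to 0.64 (edgeR, Benjamini-Hochberg adjusted p = 0.218). An unstranded count of SLC39A4 could include reads of AC233992.3, which covers 3.58% of its exonic bases on the opposite strand.

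In the rest of the importer family, 4 genes rose and none fell among 10 of 12 ZIP genes that were tested, where 11.7% of all genes rose. This list was chosen with earlier results of these data known, so the count is a description and not a test. SLC39A8, the importer ZIP8 of zinc, manganese and cadmium, measured 11.8, 6.23 and 12.01 CPM in Vector and 23.4, 19.4 and 17.8 CPM in OE-MMP28, a log2 fold change of 1.01 (edgeR, Benjamini-Hochberg adjusted p = 0.00300). SLC39A9, the Golgi importer ZIP9, measured 69.7, 48.6 and 61.3 CPM in Vector and 123.2, 111 and 88.1 CPM in OE-MMP28, a log2 fold change of 0.84 (edgeR, Benjamini-Hochberg adjusted p = 0.00139). Both genes were higher in every OE-MMP28 library than in any Vector library. The SLC39A8 call held under all 19 alternatives, and SLC39A9 lost its call with the local-median offset described below, at 0.47 (edgeR, Benjamini-Hochberg adjusted p = 0.0636). SLC39A11 was also higher without overlap, at 21.1 to 24.7 CPM against 10.5 to 16.5 CPM in Vector (log2 fold change 0.74, edgeR, Benjamini-Hochberg adjusted p = 0.00837), but lost its call without Vector replicate 3 or OE-MMP28 replicate 2 (adjusted p = 0.0780 and 0.0526). SLC39A3 rose by 0.71 on the log2 scale with overlapping groups (edgeR, Benjamini-Hochberg adjusted p = 0.0326), and its call was lost under 8 of the 19 alternatives, among them leaving out Vector replicate 1 or 3 or OE-MMP28 replicate 2 or 3. Among those not called, 2 ZIP genes were lower at an unadjusted p under 0.05, and DESeq2 called 1 gene lower. SLC39A5 was one of the lower genes, with a log2 fold change of -1.64 (edgeR, Benjamini-Hochberg adjusted p = 0.0559) on levels of 0.523 to 4.15 CPM in Vector and 0.188 to 0.849 CPM in OE-MMP28. SLC39A14, an importer of zinc and iron, measured 220 to 299.9 CPM and differed by -0.02 on the log2 scale, with a 95% interval from -0.34 to 0.29.

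Of the 9 other ZnT exporters 6 were tested and none was called, where 23.4% of all genes were called in either direction, with log2 fold changes from -0.43 for SLC30A4 to 0.29 for SLC30A5 (edgeR, at an adjusted p of 0.05). The number was 0 as well at an unadjusted p under 0.05 and by DESeq2 and limma voom. SLC30A2, SLC30A3 and SLC30A8 were at 0 in all libraries, SLC30A8 being the exporter of insulin granules in beta cells. The median log2 fold change was 0.14 for the ZnT genes tested and 0.21 for the ZIP genes tested, against 0.01 over all genes.

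**Figure D4:**
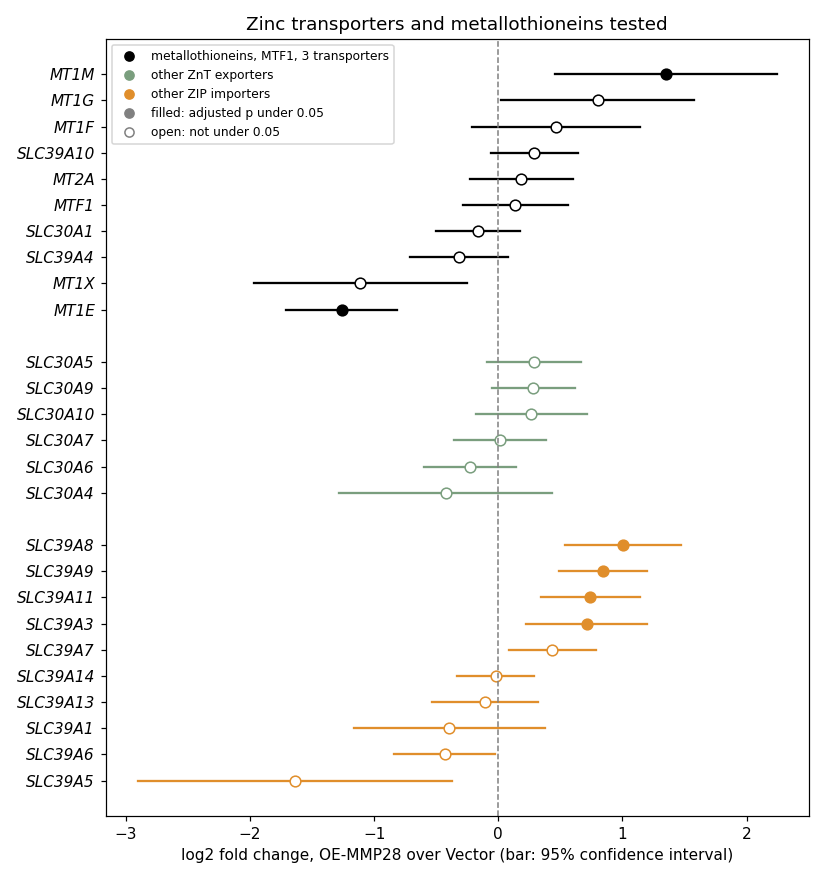
Log2 fold change of OE-MMP28 over Vector with its 95% confidence interval for the metallothioneins, MTF1 and zinc transporters that were tested, filled where the adjusted p was under 0.05. MT1M at 1.35 and MT1E at -1.26 are the outermost points of the first group, 4 ZIP importers from 0.71 to 1.01 are filled, and no ZnT exporter is.

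Genes of copper handling, of the response to metal and proteotoxic stress and of the response to glucocorticoids were counted beside the metallothioneins. These lists were chosen with earlier results of these data known, so their counts are a description and not a test. Among copper handling genes, 3 of 8 tested rose and none fell, where 11.7% of all genes rose and 11.6% fell. The genes that rose were ATOX1 and COX17, chaperones that carry copper to transport ATPases and to mitochondria, and CCS, the copper chaperone of superoxide dismutase. Their log2 fold changes were 0.54, 0.60 and 0.58 (edgeR, Benjamini-Hochberg adjusted p = 0.0293, 0.0136 and 0.0495). The call of ATOX1 was lost under 7 of the 19 alternatives, that of CCS under 14 and that of COX17 under 1. ATOX1 and CCS lost it without any one of Vector replicates 1 and 3 and OE-MMP28 replicates 2 and 3, CCS being 0.35 without the last, and COX17 lost it without Vector replicate 3 (edgeR, Benjamini-Hochberg adjusted p from 0.0728 to 0.291). Among 10 metal and proteotoxic stress genes none rose and 2 fell, a share near the 11.6% of all genes that fell, GCLC by 0.53 and GCLM by 0.83 on the log2 scale (edgeR, Benjamini-Hochberg adjusted p = 0.0292 and 0.0104). GCLC and GCLM encode the subunits of the enzyme that limits glutathione synthesis. Both calls were lost under 5 of the 19 alternatives, among them leaving out OE-MMP28 replicate 2 or 3. Without Vector replicate 1 GCLC was -0.32 and GCLM -0.54 on the log2 scale (edgeR, Benjamini-Hochberg adjusted p = 0.199 and 0.0701). Vector replicate 1 was the highest Vector library for every gene of this list. TXNRD1, for example, measured 1068, 549 and 656 CPM in Vector, and SLC7A11 124, 62.6 and 64.7 CPM. No gene of this list was higher at an unadjusted p under 0.05 or by DESeq2 or limma voom, and of the copper genes 1 was lower at an unadjusted p under 0.05 and 0 by DESeq2 or limma voom. HMOX1 and HSPA1A, which cadmium and other metals induce, had log2 fold changes of -0.47 and -0.03 and were not called, and the level of HSPA1A is uncertain because HSPA1B is a near-identical copy.

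Among 8 glucocorticoid-responsive genes tested, 4 rose and 1 fell, where 11.7% of all genes rose and 11.6% fell. FKBP5 rose by 0.66, DUSP1 by 0.65, SGK1 by 0.98 and NFKBIA by 0.44 on the log2 scale, and ERRFI1 fell by 0.57 (edgeR, Benjamini-Hochberg adjusted p = 0.00834, 0.00873, 0.000591, 0.0468 and 0.0162). FKBP5 and SGK1 kept their call under all 19 alternatives. The call of NFKBIA was lost under 15 of them, among them each left-out library but OE-MMP28 replicate 1, and its direction turned with the local-median offset described below. ERRFI1 lost its call without Vector replicate 2, where it was -0.37, and without OE-MMP28 replicate 2 or 3 (edgeR, Benjamini-Hochberg adjusted p = 0.105, 0.0896 and 0.0509). DUSP1 lost its call without Vector replicate 3 (edgeR, Benjamini-Hochberg adjusted p = 0.0839). TSC22D3, PER1 and CEBPD, further genes of this list, were not called and had log2 fold changes of 0.45, -0.55 and -0.32. The groups did not overlap for 5 genes of the list that were higher and 3 that were lower in OE-MMP28. Over all genes tested these shares were 19.5% higher and 18.6% lower.

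Median fold changes of neighbouring genes were taken around each gene, as a description. The 50 tested genes within 5 Mb of the metallothionein cluster had a median log2 fold change of -0.34, and the 98 around SLC39A4 had one of -0.43. Around MTF1 the median was 0.16 over 103 genes, around SLC30A1 0.20 over 46 and around SLC39A10 -0.23 over 30. Relative to the local median, MT1E remained lower by -0.92 (edgeR, Benjamini-Hochberg adjusted p = 0.00596) and MT1M remained higher by 1.69 (edgeR, Benjamini-Hochberg adjusted p = 0.0109). Under the same offset the log2 fold change of SLC39A4 was 0.11 in place of -0.32, and MT1G at 1.14 and SLC39A10 at 0.52 passed the threshold (edgeR, Benjamini-Hochberg adjusted p = 0.0431 and 0.0384). The part of the neighbourhood in these values was not tested.

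The genes whose profile over the 6 libraries was most like that of MT2A were UQCC3, PSMG3, SCAND1, ALS2CL and DGCR6L, out of 9577 genes with a mean of at least 10 CPM. Their root mean square difference from MT2A in centred log2 CPM lay between 0.047 and 0.073. PSMG3, for example, measured 27.3, 39.5 and 27.0 CPM in Vector and 26.2, 35.5 and 45.4 CPM in OE-MMP28, so that Vector replicate 2 and OE-MMP28 replicate 3 were the high libraries for both genes. SLC39A4 was likewise highest in Vector replicate 2 and OE-MMP28 replicate 3 within the groups, whereas SLC30A1 and SLC39A10 were lowest in OE-MMP28 replicate 3.

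**Figure D5:**
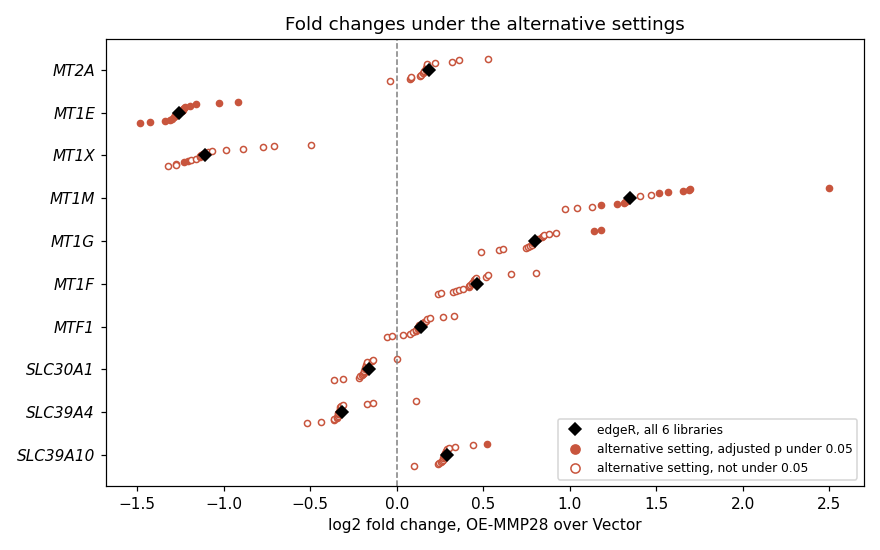
Log2 fold change of OE-MMP28 over Vector for the 10 genes with all 6 libraries in edgeR (diamonds) and under the alternative settings (circles, filled where the adjusted p was under 0.05). MT1E stays between -1.48 and -0.92 and is filled throughout, MT1M is filled under 13 of 19 settings with its outermost point at 2.50 without Vector replicate 1, and MT2A, MTF1, SLC30A1 and SLC39A4 cross 0.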

How the data were processed

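RNA of 6 AsPC-1 libraries was sequenced, and the sample titles gave the group and number of each. The authors deposited whole-number read counts per gene, neither normalized nor pooled, and FPKM values, which divide by gene length and library total. The submitters' processing notes name HISAT2 2.0.5 and featureCounts 1.5.0-p3. Handling of multiply matching reads and strand was not given in the sources used here. The authors' own fold changes and p-values, also deposited, were not used. All 58735 identifiers and coordinates were those of GENCODE release 29 (GRCh38). Unmapped per-sample columns and rows without a gene numbered 0.

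Genes were filtered with filterByExpr (minimum count 10, minimum total 15), scaled by TMM and tested with edgeR's quasi-likelihood test (edgeR 4.0.16, R 4.3.3) on the group alone, with Benjamini-Hochberg adjustment over all genes tested. The study's methods call the RNA samples triplicate and its cell experiments independently repeated, but do not say whether the 3 libraries of a group were separate cultures, so p-values measure only the spread between these libraries, which may be technical. The test was checked on simulated data. The main transcript was the coding one that GENCODE ranks first by its APPRIS tag. The members and lists were chosen with earlier results of these data known. Named genes were the members, MMP28, list genes with an adjusted p under 0.05 and the 5 genes most like MT2A, and others were named after their values were seen. The 19 alternatives left out each library, added the replicate block, or changed scaling, filter or test (DESeq2 1.42.0, limma 3.58.1 on voom weights or on log2(FPKM + 1) and log2(FPKM + 0.1)). Others left out mitochondrial genes or added an offset for gene length or for the local median of fold changes within 5 Mb.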

Additional observations from a re-analysis of the deposited data

How the results depend on the processing

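Of the 10 genes, 1 was called higher, and this number was between 0 and 2 when one library was left out, being 2 without Vector replicate 1 (MT1M and MT1G) and 0 without any one of the other 5. It was 0 under DESeq2 and 3 with the local-median offset. The number called lower was 1, and was 2 without Vector replicate 1, without a filter on low counts and with the gene length offset, each time with MT1X beside MT1E. These numbers lie between 1 and 2 over the left-out libraries. MT1E was called under all 19 alternatives with adjusted p from 9.97e-11 to 0.00831. MT1X was not tested at a minimum count of 30 and was called under 4 of the 18 others, with adjusted p from 0.0260 to 0.306 over all of them. Over left-out libraries MT2A ranged from -0.038 to 0.36, MTF1 from -0.058 to 0.33, SLC30A1 from -0.31 to 0.0015, SLC39A10 from 0.099 to 0.44, SLC39A4 from -0.52 to -0.14, MT1F from 0.26 to 0.66, MT1G from 0.49 to 1.18 and MT1X from -1.32 to -0.71. The direction turned for MT2A (-0.038) and SLC30A1 (0.0015) without OE-MMP28 replicate 3, for MTF1 without Vector replicate 2 (-0.058) and with the local-median offset (-0.026), and with that offset for SLC39A4 (0.11) and NFKBIA (-0.12). The cause was not tested. The summed metallothionein level, log2 difference -0.41, lay between -0.60 and -0.24 over left-out libraries and was -0.42 from the 6 genes alone, a setting chosen after seeing the data. Across all genes, 1795 were higher and 1784 lower, against 985 and 1044 without OE-MMP28 replicate 2, 1136 and 1231 without Vector replicate 3 and 1136 and 1232 with the local-median offset.

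Replicate numbers were shared between the groups, but deviations of libraries with the same number correlated at only 0.017, 0.0080 and -0.088 across genes. Whether a shared number meant a shared culture or batch was not given, and these few correlations cannot decide it. With the replicate block 1844 genes were higher and 1841 lower, and 1 of the 10 genes was called in each direction. With block and gene length offset together, 1 was called higher and 2 lower. No library correlated best with its own number, and the largest correlation was 0.17, between Vector replicate 3 and OE-MMP28 replicate 1.

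Depth limits MT1X, MT1G, MT1F and MT1M, which rest on 10 to 103 counts per library, against 249 to 798 counts for MT1E.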
